A study of Mus musculus with 2 samples.

Results

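Neuroendocrine-like cells of the mouse thymic medulla were identified among EPCAM+ cells sorted from thymus and profiled singly in droplets. A cell was counted as neuroendocrine-like when it held at least 1 unique molecular identifier (UMI, 1 counted transcript molecule) of at least 4 of 7 marker genes. These markers were Stxbp5l, Car8, Cd177, Cacna2d1, Ptprn2, Chgb and Snap25. A cell with 4 or more of 8 tuft cell genes (Sh2d6, Alox5ap, Rgs13, Sh2d7, Ly6g6f, Dclk1, Pou2f3 and Trpm5) was left out. The rule gave 303 cells of the 7621 that passed the filters on cells.

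The series holds 1 library labelled Foxp1 KO, from Cre+ mice, and 1 labelled Foxp1 WT, from Cre- mice. Foxp1 is a forkhead transcription factor. The descriptions give neither the Cre driver, the deleted part of Foxp1, the age nor the number of animals pooled, and their genotype field reads KO for both libraries. Cells were digested with liberase and DNAse, enriched on Percoll and sorted live. Each group is 1 library, so no difference between them has a replicate check, no test was made, and every interval below covers counting error only.

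The filters kept 3584 of 4277 barcodes in the library labelled KO and 4037 of 4957 in the library labelled WT. The deposited totals were 25233944 and 33120715 UMIs, with the library labelled KO given first. The neuroendocrine-like cells were deeper than the rest, with a median of 8575.5 UMIs in the library labelled KO and 9402 in the library labelled WT. All other kept cells, tuft-like cells included, had medians of 4865 and 6007.5 UMIs. The libraries shared 5 deposited barcodes, of which 3 were kept in both libraries and 0 were neuroendocrine-like in both. The counts of Foxp1 over the whole gene went against the label, being higher in the library labelled KO, and counts that may fall outside a deleted part cannot check a deletion.

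Epithelial cells of the thymic medulla make antigens that are otherwise found in other organs and show them to maturing T cells, so that self-reactive cells are removed or diverted. Some medullary cells go further and take on the programme of a peripheral cell type, and these are called mimetic cells. Neuroendocrine cells of the gut, airway and pancreatic islet store peptide hormones in dense-core granules, which fuse with the membrane when calcium enters. The granule matrix is built by chromogranins and secretogranins, hormones are cut from precursors by prohormone convertases, and transcription factors such as Insm1, Neurod1 and Rfx6 set up the lineage. Ptprn2, a granule membrane protein, is also a target of autoantibodies in autoimmune diabetes.

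Promoters of 3 granule genes are shown because 2 letter patterns tied to neuroendocrine and cyclic AMP regulation occur in them. The RE1 element, bound by the repressor REST, is written in textbooks as a left part, TTCAGCACC, and a right part with 1 free base, whose opposite strand is the start of the longer run in capitals below. The cyclic AMP response element (CRE) is TGACGTCA, which reads the same on both strands. Windows of 300 bases, from 250 before to 50 after the RefSeq start (GRCm38.p6), were searched on both strands for 20 of 22 genes, these being the 7 markers and the 15 genes most raised in the neuroendocrine-like cells. Car8 and Snap25 had no window. The motifs were chosen after the genes had been seen. Capitals mark the matches.
Scg2, chr1:79439977-79440276, minus strand: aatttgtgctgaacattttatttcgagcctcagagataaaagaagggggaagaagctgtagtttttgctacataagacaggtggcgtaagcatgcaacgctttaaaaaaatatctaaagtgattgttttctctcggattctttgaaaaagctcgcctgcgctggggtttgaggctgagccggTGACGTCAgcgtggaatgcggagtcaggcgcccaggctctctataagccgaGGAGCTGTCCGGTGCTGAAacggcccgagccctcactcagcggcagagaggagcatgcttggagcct
Ptprn2, chr12:116485470-116485769, plus strand: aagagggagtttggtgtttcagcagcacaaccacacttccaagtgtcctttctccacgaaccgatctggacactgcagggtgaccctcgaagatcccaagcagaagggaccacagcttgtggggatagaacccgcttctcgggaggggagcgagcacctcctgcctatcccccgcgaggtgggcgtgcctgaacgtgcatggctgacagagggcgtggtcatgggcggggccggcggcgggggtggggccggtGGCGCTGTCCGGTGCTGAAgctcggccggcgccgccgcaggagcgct
Chgb, chr2:132781392-132781691, plus strand: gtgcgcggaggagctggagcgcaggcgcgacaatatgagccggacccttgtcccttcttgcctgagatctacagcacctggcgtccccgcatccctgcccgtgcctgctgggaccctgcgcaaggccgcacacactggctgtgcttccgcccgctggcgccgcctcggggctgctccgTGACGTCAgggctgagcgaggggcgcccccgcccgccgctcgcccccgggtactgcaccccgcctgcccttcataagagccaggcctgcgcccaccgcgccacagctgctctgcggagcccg
In Scg2 and Ptprn2 both parts of RE1 stand on the opposite strand of the window, directly next to each other. The abutting form occurred in 2 of 32851 promoter windows (0.00609%), those of these 2 genes. Both parts at any spacing occurred in 11 windows (0.0335%), the left part in 0.371% and the right part in 0.642%. The textbook form with 2 free bases between the parts occurred in 1 window and in none of the 20 genes searched. The CRE occurred in 1.79% of windows, and among the genes searched in Chgb and Scg2. These are letter matches and say nothing of binding in these cells.

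The neuroendocrine-like cells formed a second hump in the number of markers per cell. These are the markers of the rule, so the hump is a description and no independent check of the cells. In the library labelled KO, 27 cells had 3 markers, 26 had 4, 49 had 5, 56 had 6 and 29 had all 7. In the library labelled WT, the counts were 43, 18, 36, 46 and 43. The number of cells fell steeply up to 3 markers in both libraries and climbed again above 4.

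**Figure D1:**
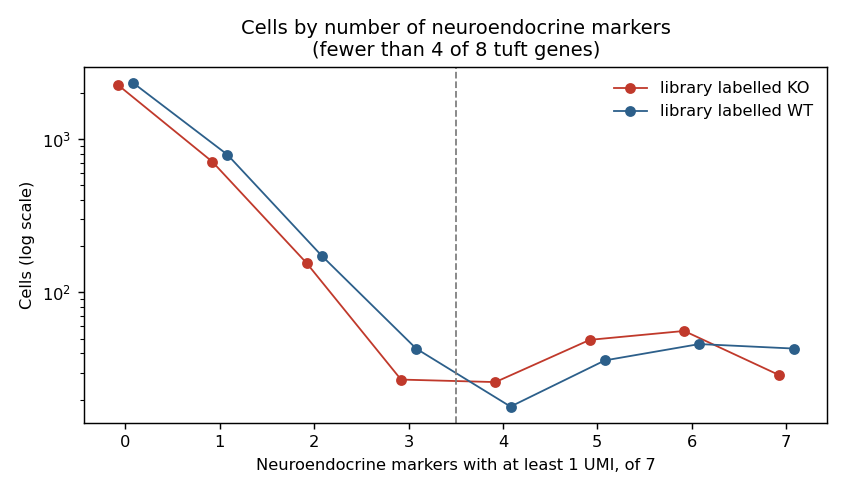
Number of kept cells with fewer than 4 tuft genes (vertical axis, log scale) by number of the 7 markers with at least 1 UMI (horizontal axis), for the library labelled KO (red) and the library labelled WT (blue). The dashed line is the threshold of 4 markers, and each library has a low point beside it and a second hump of 29 to 56 cells at 5 to 7 markers.

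Cells just inside and just outside the threshold were split on the genes of the rule. A difference in those genes was therefore fixed in advance. Cells with 4 markers in the library labelled KO held 748 CPM (the gene's UMIs summed over the cells and scaled to a fixed total) of Car8, a carbonic anhydrase-related protein, and cells with 3 markers held 87.4 CPM. The Car8 values of the library labelled WT were 800 CPM at 4 markers and 88.0 CPM at 3. Insm1, which the rule did not use, stood at 347 and 196 CPM in the library labelled KO. It had 282 and 182 CPM in the library labelled WT, in the same order. Its values lay closer together than those of Car8. Cells with 4 or more markers numbered a further 18 in the library labelled KO and 36 in the library labelled WT that also held 4 or more tuft genes, with medians of 13788.5 and 16413 UMIs.

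The label was checked on 10 neuroendocrine genes outside the rule: Chga, Scg2, Scg3, Scg5, Syp, Insm1, Neurod1, Pcsk1, Pcsk2 and Cpe. At least 3 of them had a UMI in 74.4% of neuroendocrine-like cells of the library labelled KO and in 79.0% of those of the library labelled WT. Among all other cells the shares were 3.01% and 4.13%, and among tuft-like cells 4.12% and 3.93%. With every cell thinned to 2000 UMIs the shares were 28.2% and 35.7% in neuroendocrine-like cells, against 0.348% and 0.319% in the others. Endothelial-like cells, which should lack the programme, gave 0 of 95 and 0 of 40 cells at 2000 UMIs, which allows shares of up to 3.16% and 7.5%. Epcam, the surface protein of the sort, had a UMI in 96.3% and 96.5% of neuroendocrine-like cells. The shares are a description, since both sets of markers were read in the same cells.

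Neuroendocrine-like cells made up 4.46% (exact Clopper-Pearson 95% interval 3.81 to 5.19) of kept cells in the library labelled KO, 160 of 3584. They made up 3.54% (2.99 to 4.16) in the library labelled WT, 143 of 4037. The log2 ratio of the shares was 0.33, with a conditional binomial interval that reached just below 0 and up to 0.67. With the rule applied at 2000 UMIs per cell, the shares were 4.02% and 2.98% and the log2 ratio 0.43 (0.05 to 0.82). Among kept cells with an Epcam UMI, the shares were 5.70% and 4.32% and the ratio 0.40 (0.06 to 0.74). The sort, the dissociation and the capture can each set such shares, and their part was not tested.

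The markers of the rule lay within 2-fold between the libraries apart from Chgb, which is described with the granule genes. Cacna2d1, a calcium channel subunit, had 3200 CPM in the library labelled KO and 2283 CPM in the library labelled WT. Car8 had 1645 and 1787 CPM, Stxbp5l (tomosyn-2, which binds the fusion machinery) 2262 and 2370 CPM, Snap25 (a fusion protein) 334 and 260 CPM and Cd177 431 and 534 CPM. The 8 tuft genes summed to 51.2 and 41.2 CPM, against 5221 and 5280 CPM in tuft-like cells.

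Of 9129 genes with at least 50 UMIs over the neuroendocrine-like cells, 250 (2.74%) stood at least 4-fold (log2 of 2) above all other cells in both libraries. The rule selected on the same cells, so these genes are given as a description. CPM was not scaled by gene length, and levels of different genes are therefore not compared. Outside the rule, the genes most raised in both libraries began with Speer4c, Scg2, Elavl4, Ffar2, Slc35d3, Clca3b, A230057D06Rik, Rfx6, Myt1 and Cacnb2, followed by Rimbp2, A330076H08Rik, Cpn1, Gnao1 and Col8a1. Ffar2, a receptor for short-chain fatty acids known from gut endocrine cells, had 65.8 CPM in neuroendocrine-like cells and 1.10 CPM in other cells of the library labelled KO. Its levels in the library labelled WT were 64.9 and 1.45 CPM. The genes raised at least 4-fold had a median span of 40.4 kb in the annotation, against 29.9 kb over all 9129.

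The lineage transcription factors were present at levels close to each other in the libraries. Of 28 on the list, 14 reached 50 UMIs, and 7 of these were at least 4-fold above other cells in both libraries. Insm1, a zinc-finger factor of endocrine differentiation, had 379 CPM in the library labelled KO and 374 CPM in the library labelled WT, against 101 and 126 CPM in other cells. Rfx6, a factor of islet and gut endocrine development, had 105 and 90.3 CPM, against 1.80 and 3.70 CPM.

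Isl1 (236 and 168 CPM), Prox1 (181 and 144 CPM) and Foxa2 (43.9 and 30.5 CPM) were higher in the library labelled KO, whose value is given first. Rfx3, a factor of ciliated and endocrine cells, had 438 and 504 CPM. In all, the library labelled KO was higher for 10 of the 14 and lower for 4, and 0 passed 2-fold in either direction. Over all 9129 genes, 4669 were higher and 4460 lower. The list median was a log2 ratio of 0.23, against 0.01 over all 9129 genes. Pooled within the sub-clusters described below, the list median was 0.069. Neurod1 did not reach 50 UMIs, with 3 UMIs in 2 cells of the library labelled KO and 45 UMIs in 7 cells of the library labelled WT. Neurog3 gave 28 UMIs in the library labelled KO and 52 in the library labelled WT, where 1 cell held 51.9% of them.

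Rest, which encodes the repressor that binds RE1, was low in the neuroendocrine-like cells. It had 11.6 CPM in these cells of the library labelled KO and 29.3 CPM in all other cells. The levels were 8.46 and 26.0 CPM in the library labelled WT. The values rest on 19 and 15 UMIs.

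Of 16 granule genes with enough UMIs, Chgb aside, 10 stood at least 4-fold above other cells in both libraries. Chga, chromogranin A, had 390 CPM in each library, against 16.5 CPM in other cells of the library labelled KO and 37.0 CPM in those of the library labelled WT. Scg5, the chaperone of the convertase PCSK2, had 319 and 277 CPM, and Pcsk1, a prohormone convertase, had 48.8 and 44.0 CPM, with the library labelled KO first. Pam, the enzyme that amidates peptide hormones, had 1207 and 941 CPM. Scg2, secretogranin II, had 404 CPM in 53 of 160 cells of the library labelled KO and 212 CPM in 37 of 143 cells of the library labelled WT (log2 ratio 0.93, interval 0.75 to 1.12).

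**Figure D2:**
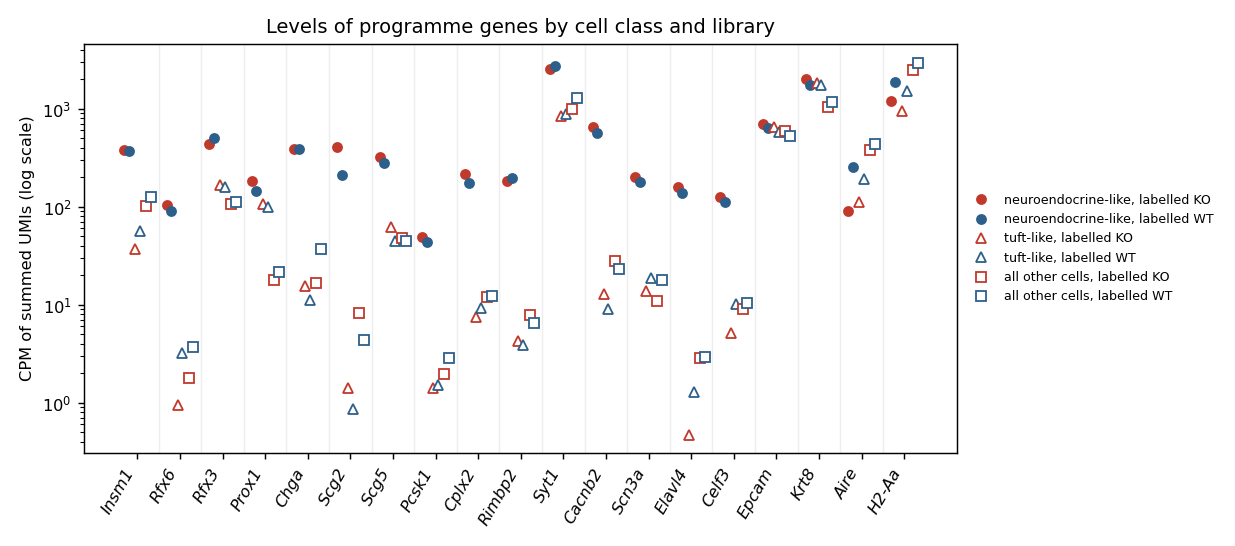
Level of 19 genes (vertical axis, CPM of summed UMIs, log scale) in neuroendocrine-like cells (filled circles), tuft-like cells (triangles) and all other cells, tuft-like cells included (squares), in the library labelled KO (red) and the library labelled WT (blue). The circles of endocrine genes such as Rfx6, Scg2 and Elavl4 stand far above the other symbols in both libraries, while Epcam lies close in all classes and Aire and H2-Aa lie lower in neuroendocrine-like cells.

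Chgb and Pcsk2 were the granule genes more than 2-fold lower in the library labelled KO. Chgb, chromogranin B, is one of the 7 markers, and the rule did not use the comparison of libraries. It had 117 CPM (192 UMIs in 41.3% of cells) in the library labelled KO and 534 CPM (946 UMIs in 51.7% of cells) in the library labelled WT (log2 ratio -2.19, interval -2.42 to -1.96). One cell held 33.8% of the UMIs of the library labelled WT, and the ratio without the richest cell of each library was -1.74. At 2000 UMIs per cell, Chgb had a UMI in 15.4% of cells (10.1 to 22.0) of the library labelled KO and 22.4% (15.8 to 30.1) of the library labelled WT, intervals that overlap. Pcsk2, a convertase, had 19.5 and 94.8 CPM, a log2 ratio of -2.28, and 1 cell held 57.7% of its UMIs in the library labelled WT.

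Of the other granule genes, 1 passed 2-fold, namely Vgf, a neurosecretory peptide precursor, with 63.4 CPM in the library labelled KO and 30.5 CPM in the library labelled WT. The median of the list of 16, which leaves out Chgb, was a log2 ratio of 0.15, and -0.021 when pooled within sub-clusters. Over all 9129 genes, 142 (1.56%) were at least 2-fold higher and 317 (3.47%) at least 2-fold lower in the library labelled KO. For 47 of the 142 genes (33.1%) and 101 of the 317 (31.9%), 1 cell gave most of the UMIs of the higher library or exactly as many as the others together.

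Exocytosis genes lay close to each other in the libraries. Of 20 with enough UMIs, 11 were above and 9 below the library labelled WT, 1 passed 2-fold, and the list median was 0.02. Syt1, a calcium sensor of vesicle fusion, had 2556 CPM in the library labelled KO and 2709 CPM in the library labelled WT, and had a UMI in every neuroendocrine-like cell. It was not particular to these cells, with 991 and 1280 CPM in the others. Cplx2, a complexin that regulates fusion, had 215 and 173 CPM, against 12 and 12.2 CPM in other cells. Rimbp2, which tethers calcium channels at release sites, had 182 and 196 CPM, against 7.90 and 6.48 CPM. The gene past 2-fold was Sv2b, a vesicle protein with 38 and 18 UMIs.

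Ion channel genes showed a similar picture, with 9 of 18 higher, 9 lower and a list median of -0.01. Cacnb2, a calcium channel subunit, had 643 CPM in the library labelled KO and 567 CPM in the library labelled WT, against 27.8 and 23.0 CPM in other cells. Scn3a, a sodium channel, had 203 and 177 CPM, against 10.9 and 17.8 CPM. Cacna1a, the pore of P/Q-type calcium channels, had 366 and 443 CPM. The islet ATP-sensitive potassium channel, made of Kcnj11 and Abcc8, was present with 25 and 25.4 CPM of Kcnj11 and 78.0 and 93.6 CPM of Abcc8. Kcnj6 was the 1 channel gene past 2-fold, with 45 and 18 UMIs.

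Of 7 neuronal RNA-binding proteins with enough UMIs, 3 stood at least 4-fold above other cells in both libraries. The list of 14 summed to 1186 CPM in the library labelled KO and 1058 CPM in the library labelled WT, against 979 and 812 CPM in other cells. Elavl4, which stabilises neuronal transcripts, had 160 CPM in the library labelled KO and 138 CPM in the library labelled WT, against 2.85 and 2.91 CPM in other cells. Celf3 had 127 and 112 CPM, against 9.08 and 10.4 CPM. None of the 7 (0) passed 2-fold between the libraries. Genes of amine synthesis included Ddc, the decarboxylase that makes serotonin and dopamine, at 135 and 122 CPM, and Gch1, which starts the synthesis of tetrahydrobiopterin, at 134 and 90.8 CPM. Tph1, the enzyme that starts serotonin synthesis, had 78 UMIs in 8 cells of the library labelled KO, 60.3% of them in 1 cell, and 32 UMIs in 11 cells of the library labelled WT.

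Neuronal adhesion genes lay on both sides, with 2 of 15 past 2-fold higher, 4 past 2-fold lower and a median of 0.01. Of the 15, 0 stood at least 4-fold above other cells in both libraries. Nrxn3, a presynaptic neurexin, had 462 CPM in the library labelled KO and 170 CPM in the library labelled WT, in 25.6% and 25.2% of cells. Dpp6 had 169 and 82.4 CPM. Negr1 had 18.9 and 54.7 CPM, Lsamp 25 and 69.9 CPM, Ctnna2 23.2 and 60.9 CPM and Cntnap5a 6.71 and 29.9 CPM.

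Several peptide hormone genes had nearly all of their UMIs in a few cells. No hormone UMI was found in 26.3% of neuroendocrine-like cells of the library labelled KO and in 13.3% of those of the library labelled WT. At 2000 UMIs per cell these shares were 51.3% and 43.4%. Of 29 hormone genes, 13 reached 50 UMIs over the cells, 2 of them past 2-fold higher and 5 past 2-fold lower in the library labelled KO; their median was -0.19. The median was 0.73 without sub-clusters 1 and 4, so its sign depends on which cells are counted. Of the 13, 3 stood at least 4-fold above other cells in both libraries. The lower of each gene's log2 ratios to other cells, 1 per library, had a median of -0.87 over the 13. The 29 genes summed to 1618 CPM in neuroendocrine-like cells of the library labelled KO and 2070 CPM in those of the library labelled WT. The sums were 1258 and 1519 CPM in all other cells and 998 and 694 CPM in endothelial-like cells.

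Somatostatin, Sst, gave 422 UMIs in 2 cells of the library labelled KO, with 330 and 92 UMIs. In the library labelled WT it gave 1435 UMIs in 5 cells, of which 2 held 876 and 520. Glucagon, Gcg, gave 326 UMIs in the library labelled KO, 309 of them in 1 cell, and 209 in the library labelled WT, 202 of them in 1 cell. Peptide YY, Pyy, gave 273 UMIs in the library labelled KO, with 247 in 1 cell, and 93 in the library labelled WT. Ghrelin, Ghrl, gave 119 UMIs in 5 cells of the library labelled KO and 456 UMIs in 14 cells of the library labelled WT. Ratios between libraries for these genes are ratios of a few cells.

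Cells rich in a hormone were counted at 10 or more UMIs of 1 hormone gene per 10000, a limit set after the values had been seen. There were 34 such cells of 160 (21.3%) in the library labelled KO and 29 of 143 (20.3%) in the library labelled WT. Of these, 0 and 3 were rich in more than 1 hormone. Iapp, islet amyloid polypeptide, was the hormone with the most rich cells, at 19 in the library labelled KO against 13 in the library labelled WT. Calcb, the precursor of a calcitonin gene-related peptide, followed with 6 and 3, and Ghrl gave 1 and 5. Insulin was near absent, with 0 UMIs of Ins1 in both libraries, and with 2 UMIs of Ins2 in the library labelled KO and 23 in the library labelled WT.

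**Figure D3:**
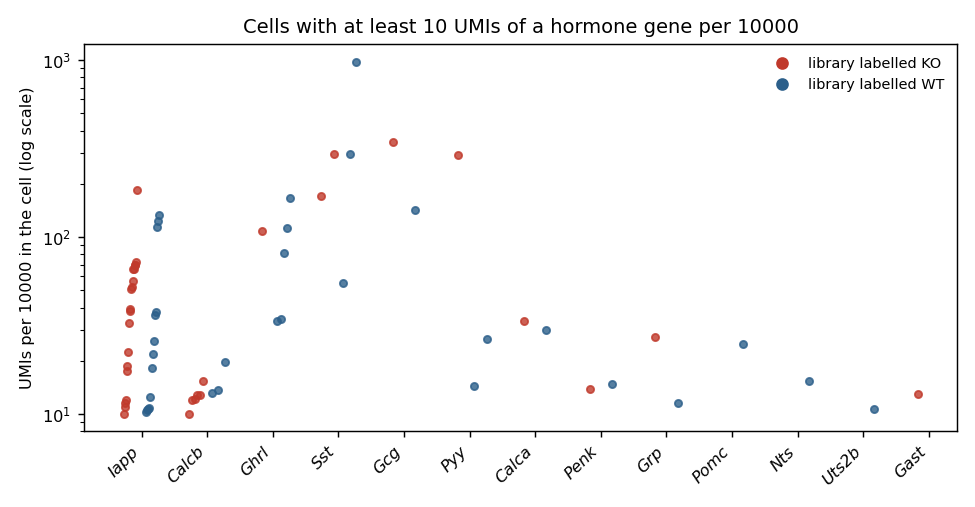
UMIs of a hormone gene per 10000 UMIs of the cell (vertical axis, log scale), for neuroendocrine-like cells at 10 or more, in the library labelled KO (red, left) and the library labelled WT (blue, right), by hormone gene. Each point is 1 cell, and Iapp has the most points, 19 and 13, while Gcg has 1 point in each library.

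Among antigens of autoimmune endocrine disease, Ptprn2 (IA-2 beta) had 1143 CPM in the library labelled KO and 1097 CPM in the library labelled WT, against 43.7 and 55.2 CPM in other cells. Its paralog Ptprn had 43.3 and 38.9 CPM, against 3.64 and 5.06 CPM. Of 7 such genes with enough UMIs, 6 were higher and 1 lower, and the 1 past 2-fold was Tph1. Gad1, an isoform of glutamate decarboxylase, had 25 and 26.5 CPM. Iapp had 504 CPM in the library labelled KO and 309 CPM in the library labelled WT (log2 ratio 0.70, interval 0.55 to 0.86).

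Foxp1 itself had more counts in the neuroendocrine-like cells than in the others, and most in those of the library labelled KO. It had 1158 CPM (1900 UMIs) there and 523 CPM (928 UMIs) in the library labelled WT (log2 ratio 1.15, interval 1.03 to 1.26). In tuft-like cells it had 509 and 378 CPM, and in all other cells 342 and 239 CPM. At 2000 UMIs per cell, 73.7% of neuroendocrine-like cells (66.1 to 80.4) had a Foxp1 UMI in the library labelled KO and 52.4% (43.9 to 60.9) in the library labelled WT. Without thinning the shares were 93.8% and 91.6%. Endothelial-like cells, at 2000 UMIs, gave 55.8% and 57.5%. The counts cover the whole gene as the files give it, and reads of an RNA without a deleted exon would be counted with the others. Its relative Foxp4 had 116 and 153 CPM.

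The 24 genes selected for the size of their difference between libraries included few of the endocrine programme. Grin2b, a subunit of glutamate receptors, was among the 12 higher in the library labelled KO. It had 135 CPM in 22.5% of cells there and 28.2 CPM in 7.69% of cells in the library labelled WT (log2 ratio 2.26, interval 1.81 to 2.73). Without the richest cell of each library the ratio was 2.70.

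St8sia1, a ganglioside sialyltransferase, had 44 UMIs in 13.8% of cells of the library labelled KO and 6 UMIs in 2.80% of cells of the library labelled WT. Itln1, intelectin of intestinal cells, had 319 and 64.9 CPM, and 1 cell held 50.2% of its UMIs in the library labelled KO. Others were Abcb10, Aifm1, Zfp60, Ttll12, Upb1, Mctp1, Phactr2 and Gm21887. For Aifm1, Ttll12 and Upb1, 1 cell of the library labelled KO held 85.0%, 85.9% and 72.9% of the UMIs, and without the richest cells the log2 ratios were 0.16, 0.11 and 0.85. Mctp1 is abundant in tuft-like cells (5940 and 4995 CPM), and its ratio of 2.25 became -0.56 when cells with tuft genes were let in.

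Of the 12 genes lower in the library labelled KO, Spink1, a trypsin inhibitor of the pancreas, had 34.8 CPM there and 369 CPM in the library labelled WT (log2 ratio -3.41, interval -3.83 to -3.02). Spink4, of intestinal goblet cells, had 12.2 and 122 CPM. Krtdap, of differentiated keratinocytes, and Apoa4, an intestinal apolipoprotein, had log2 ratios of -2.39 and -2.97. Klk1b16, a kallikrein of a family with near-identical copies between which reads may be divided, had 9.14 and 122 CPM.

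Kcnip4, a potassium channel-interacting protein, had 10 UMIs in the library labelled KO and 238 in the library labelled WT. The remaining genes were Tstd1, Alpk2, Kirrel3, Plcb1, Exd2 and, described above, Chgb. Kirrel3 and Exd2 rested on 1 cell of the library labelled WT, with 74.5% and 80.3% of the UMIs, and their ratios of -2.13 and -2.38 became -0.33 and -0.34 without the richest cells. Among all other cells, Spink1 had 403 and 608 CPM and Kcnip4 90.6 and 103 CPM in the 2 libraries. In tuft-like cells alone, the log2 ratios were -2.58 for Kcnip4, -1.76 for Alpk2, -1.35 for Exd2 and -1.03 for Spink1. Tstd1, Apoa4 and Plcb1 were lower there in the library labelled KO by less than 2-fold. Klk1b16, Spink4, Chgb, Krtdap and Kirrel3 were higher there.

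**Figure D4:**
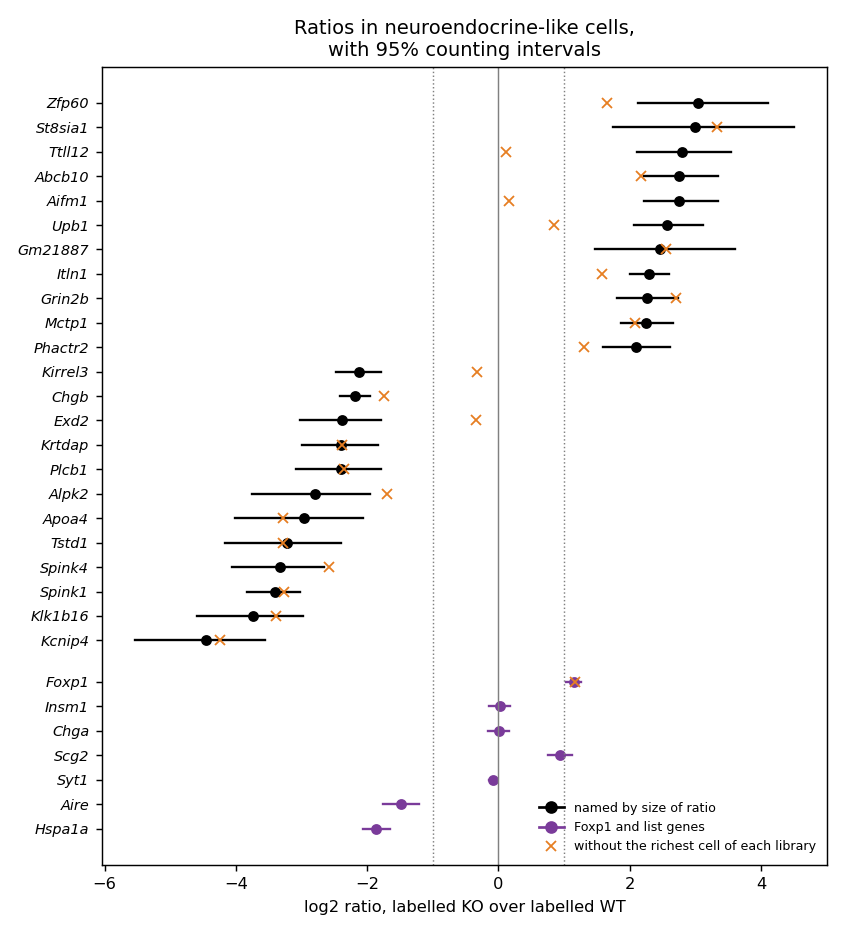
Log2 ratio of levels in neuroendocrine-like cells, library labelled KO divided by library labelled WT (horizontal axis) for 23 genes named by the size of the ratio (black) and for Foxp1 and 6 listed genes (purple). Lines are 95% conditional binomial intervals and orange crosses the ratio of named genes and Foxp1 without the richest cell of each library. Crosses of Ttll12, Aifm1, Kirrel3 and Exd2 lie near 0, while those of Grin2b, Spink1 and Kcnip4 lie past the 2-fold lines.

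Of 12 regulators of medullary epithelium with enough UMIs, 11 stood below their level in the library labelled WT, 3 of them past 2-fold, with a list median of -0.44. Over all 9129 genes, 4460 were lower and 4669 higher, and 317 (3.47%) were past 2-fold lower. Pooled within the sub-clusters, which the libraries fill unevenly, the list median was -0.15. Aire, which drives expression of peripheral tissue genes, had 90.8 CPM in neuroendocrine-like cells of the library labelled KO and 254 CPM in those of the library labelled WT (log2 ratio -1.48, interval -1.76 to -1.21). In all other cells its levels were 380 and 439 CPM. At 2000 UMIs per cell, an Aire UMI was present in 7.69% (4.04 to 13.0) and 16.8% (11.1 to 23.9) of neuroendocrine-like cells, and in 14.7% and 12.5% of endothelial-like cells. Without thinning, 95.2% and 93.5% of cells in 1 of the 5 sub-clusters described below, the fourth, held an Aire UMI, against 0% to 23.8% in the library labelled KO and 8.33% to 32.4% in the library labelled WT in the other 4.

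Cd80, a co-stimulatory ligand, had 25 and 64.3 CPM, and Foxn1, the master factor of thymic epithelium, had 12.8 and 40.1 CPM. Fezf2, a second regulator of peripheral tissue genes, had 127 and 170 CPM. Ccl21a, the chemokine of immature medullary cells and the exception of the list, had 1046 and 743 CPM. In other cells it had 2897 and 1683 CPM, on the same side.

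All 9 genes of MHC class II presentation lay below the library labelled WT, as did 4460 of all 9129 genes. Of the 9, 0 were past 2-fold, the median being -0.42 and, pooled within sub-clusters, -0.24. Summed over the list, the level was 8213 CPM in neuroendocrine-like cells of the library labelled KO and 11664 CPM in those of the library labelled WT. Tuft-like cells had 6914 and 9450 CPM, also lower in the library labelled KO. All other cells, tuft-like cells included, had 17831 and 19576 CPM. For class I presentation the split was 4 higher to 7 lower of 11, median -0.07. Epithelial genes lay slightly the other way, with 10 of 12 higher in the library labelled KO, against 4669 of all 9129 genes, and a median of 0.16. Krt8 had 1998 and 1764 CPM.

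Less heat shock RNA was counted in the library labelled KO, both in the neuroendocrine-like cells and in the other cells. Hspa1a had 149 CPM in neuroendocrine-like cells of the library labelled KO and 543 CPM in those of the library labelled WT (log2 ratio -1.86, interval -2.07 to -1.66), and Hspa1b had 176 and 656 CPM. In all other cells Hspa1a had 268 and 466 CPM. At 2000 UMIs per cell, 14.7% and 51.0% of neuroendocrine-like cells had an Hspa1a UMI, against 49.5% and 52.5% of endothelial-like cells. Dnajb1 and Hsph1, 2 co-chaperones, had log2 ratios of -1.25 and -1.21. The immediate early genes Fos and Junb did not move with them, Fos having 2220 and 2062 CPM and Junb 1371 and 1298 CPM. Heat shock and immediate early genes were listed together. Of these 11 genes, 8 fell below their level in the library labelled WT and 3 lay above it. The list median was a log2 ratio of -0.19, and the 4 genes past 2-fold were the heat shock genes named here. The part of the listed genes in the other differences was not tested.

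The summed level of 7 endothelial genes was 84.1 CPM in the library labelled KO and 142 CPM in the library labelled WT, and 2 of the 7 reached 50 UMIs. All other cells had 258 and 139 CPM, so the value of the library labelled WT was not below that of its other cells. For 7 thymocyte genes it was 14.6 and 50.8 CPM, with 3 and 0 of the genes at 0. For 8 keratinocyte genes it was 86.6 and 305 CPM, and the 4 genes assessed had a median log2 ratio of -1.92, with 4 of 4 below 0. For 6 gut and liver genes it was 57.9 and 165 CPM. For 6 pericyte and smooth muscle genes it was 265 and 250 CPM. For 5 myeloid genes it was 224 and 373 CPM, against 357 and 274 CPM in all other cells. For 3 ionocyte genes it was 42.7 and 72.2 CPM, against 32.4 and 35.7 CPM, and for 6 genes of ciliated cells 86.0 and 110 CPM, against 103 and 78.6 CPM. In all other cells the keratinocyte sum was 423 and 579 CPM and the pericyte sum 605 and 541 CPM. Free RNA in droplets may carry such genes into any cell, and its part was not tested.

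Clustering the 303 cells gave 5 sub-clusters, which are numbered and left without cell type names. Their leading genes come from the same cells and are a description. Sub-cluster 1 had 42 cells from the library labelled KO and 19 from the library labelled WT. It led with Tagln and Mgp, which are known from smooth muscle and mesenchyme, and with Kirrel3 and Ccl21a, and had a median of 11067 UMIs. Sub-cluster 2 held 54 and 44 cells and led with Cib3, Malt1, the kallikrein Klk1 and Tekt4. Malt1 had a UMI in 25.5% of its cells, against 43.4% of the other neuroendocrine-like cells. Sub-cluster 3 held 22 and 12 cells and led with Upb1, the retinol-binding protein gene Rbp4 and Scg2. The richest Upb1 cell of the library labelled KO, described above, lies there, since no other sub-cluster of that library held more than 21 Upb1 UMIs. The lead of Upb1 rests in large part on that cell.

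Sub-cluster 4 had 21 cells from the library labelled KO and 31 from the library labelled WT. It led with S100a9, Psors1c2 and S100a8 and had a median of 19153 UMIs, the highest of the 5. Its doublet score had a median of 0.076 and that of sub-cluster 1 0.069, against 0.012 to 0.020 in the other 3. Sub-cluster 5 held 21 and 37 cells and led with Anxa10, Defb1, Fetub and Muc13, with Chgb seventh. Sub-cluster 3 had the largest share of hormone-rich cells, 14 of 34, and sub-cluster 2 the smallest, 9 of 98.

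**Figure D5:**
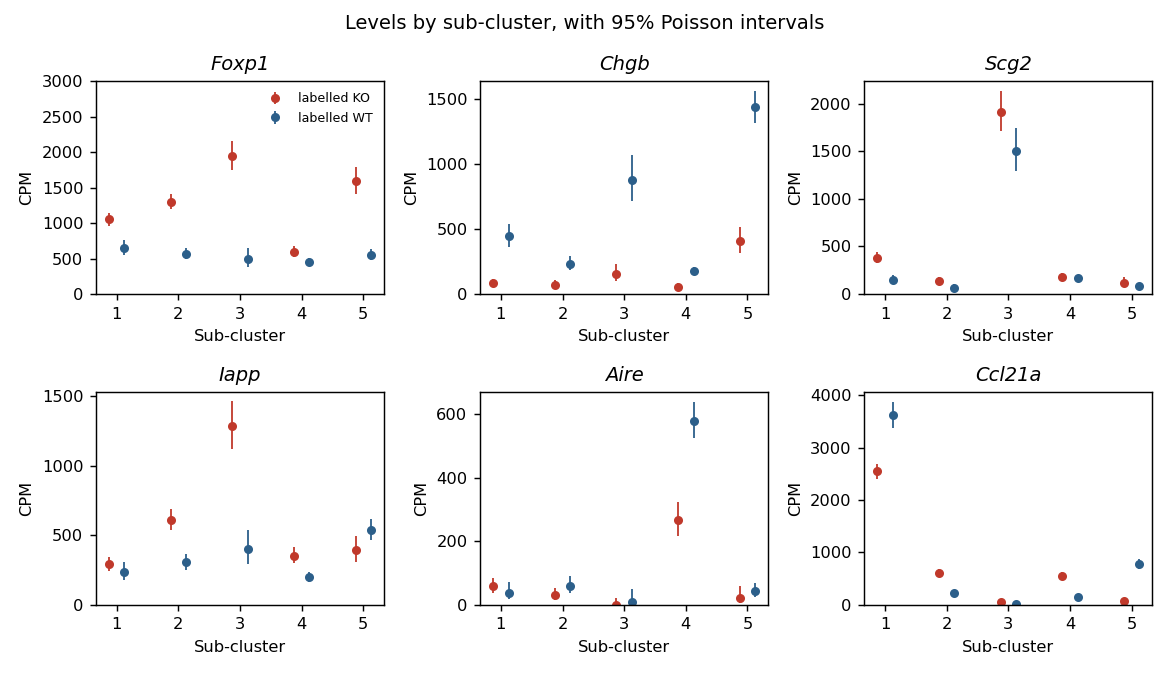
Level (vertical axis, CPM of summed UMIs, with exact Poisson 95% intervals) of 6 genes in the 5 sub-clusters (horizontal axis) of neuroendocrine-like cells, in the library labelled KO (red, left) and the library labelled WT (blue, right). Foxp1 is higher and Chgb lower in the library labelled KO in all 5, Scg2 peaks in sub-cluster 3, Aire in sub-cluster 4 and Ccl21a in sub-cluster 1.

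Within the sub-clusters, Foxp1 was higher in the library labelled KO in 5 of 5, with intervals above 0. The log2 ratio was 0.69 in sub-cluster 1, 1.20 in sub-cluster 2, 1.96 in sub-cluster 3, 0.41 in sub-cluster 4 and 1.53 in sub-cluster 5. Chgb was lower in 5 of 5, with ratios between -2.48 in sub-cluster 3 and -1.64 in sub-cluster 4. In sub-cluster 5, where its summed level was highest, Chgb had 406 CPM in the library labelled KO and 1432 CPM (538 UMIs) in the library labelled WT. The richest Chgb cell of the library labelled WT, described above, lies there, since no other sub-cluster of that library held more than 122 UMIs. The level and ratio of sub-cluster 5 rest in large part on that cell, and the ratio without it was not computed. Hspa1a and Cd74, the class II invariant chain, were lower in 5 of 5, and Scg2 was higher in 5 of 5, with its intervals above 0 in 3.

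Aire was highest in sub-cluster 4, where it had 267 CPM in the library labelled KO and 579 CPM in the library labelled WT (log2 ratio -1.12, interval -1.44 to -0.80). In the other 4 sub-clusters it had between 0 and 58.2 CPM in the library labelled KO and between 8.75 and 59.3 CPM in the library labelled WT. Scg2 in sub-cluster 3 had 1914 and 1504 CPM. In sub-cluster 1, Ccl21a was lower in the library labelled KO, with 2545 and 3621 CPM, and in sub-cluster 5, with 79.96 and 774.6 CPM, and higher in sub-clusters 2 and 4.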

How the data were processed

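Raw UMI counts per gene and barcode, as deposited by the authors, were used for both libraries. Per the file headers they were made with Cell Ranger 7.0.1, and per the submitters' processing notes with Cell Ranger and Seurat on mm10. Gene spans and overlaps were taken from GENCODE M21 on the same build. A barcode was kept if it had 500 or more genes, 1000 or more UMIs and no more than 10% of its UMIs from mitochondrial genes. Scrublet called 0 doublets in either library and has therefore not worked here; the 103 and 130 cells with the highest scores were left out as an alternative. UMIs were summed over cells of a class and scaled to CPM. Intervals are exact at 95% (Poisson, Clopper-Pearson, conditional binomial) and cover counting error only. The limit given for a count of 0 is 3 counts.

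A gene was past the fold at a log2 ratio of 1 or more with at least 50 UMIs over the neuroendocrine-like cells of both libraries. The 12 genes higher and the 12 lower whose interval bound nearest 0 lay farthest out, with a UMI in at least 10% of cells of the higher library, were named. The 15 genes most raised over other cells had a UMI in at least 25% of cells in each library. From each gene list, genes were named among the most abundant and the most different between libraries; some others (Neurod1, Neurog3, Kcnj11, Abcc8, Foxa2, Ptprn, Rest, Ins1 and Ins2) were named for their known role after their values had been seen. The cells, the lists and the rule were chosen with earlier results of these data known. Endothelial-like cells had 3 or more of 7 endothelial genes and no Epcam UMI. Sub-clusters came from 1000 variable genes, 15 components, 15 neighbours and Leiden resolution 0.6. Ratios and thinning were tested on simulated data. Of the 409 genes named or listed, 99 overlap another gene on the same strand and 179 on the other strand, and the strand of the kit is not given in the sources used here, so reads of overlapping genes cannot be told apart. Python 3.11.15, scanpy 1.11.5 and leidenalg 0.10.2 were used. Promoter sequences are from RefSeq, GRCm38.p6. Some genes that the naming rule selects are not reported here, though counts over lists include them.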

Additional observations from a re-analysis of the deposited data

Results flagged for a closer look

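In neuroendocrine-like cells, Chgb was lower in the library labelled KO (log2 ratio -2.19), and in tuft-like cells it was higher there (3.66), where it rests on 29 and 5 UMIs, 13.7 CPM in the library labelled KO and 1.08 CPM in the library labelled WT. Ttll12 was higher in the sum over neuroendocrine-like cells (2.79), where 1 cell held 85.9% of the UMIs and the ratio without the richest cells was 0.11, and lower in tuft-like cells (-2.77, 10.8 CPM in the library labelled KO and 74.0 CPM in the library labelled WT). The ratios of summed counts have opposite signs in these classes. Chgb is 1 of the 7 markers of the rule, and tuft-like cells were those with fewer than 4 of these markers. Its counts were therefore selected for in 1 class and limited in the other. The 18 and 36 cells with 4 or more markers and 4 or more tuft genes are in neither class. The Chgb contrast is thus a description only. The difference between the classes was not tested.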

How the results depend on the processing

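No paired analysis was possible because each group holds 1 library. The log2 ratio of shares lay within its counting interval under the 8 alternatives. The Foxp1 ratio stayed above 1 under 12 alternatives and reached 1.46 without sub-clusters 1 and 4, which was chosen after seeing the data. Among the 12, the limits of 20 and 200 UMIs only change which genes are counted and could not move this ratio. Genes at least 2-fold higher in the library labelled KO numbered 405 at 20 UMIs, 32 at 200 UMIs and 89 without sub-clusters 1 and 4, against 142. Lower genes numbered 778, 53 and 189, against 317. Genes raised over other cells numbered 130 at 200 UMIs, against 250. The Grin2b share ratio at 1000 UMIs per cell was 2.42, against 0.87. Without sub-clusters 1 and 4, Aifm1 had -1.15, Ttll12 -0.088 and Alpk2 0.13, and with tuft genes let in Mctp1 had -0.56, each on the other side of 0 from its reported ratio; the causes were not tested. Apoa4 gave no ratio without sub-clusters 1 and 4. Of 24 named genes, 18 of 23 stayed past 2-fold without those sub-clusters and 19 of 24 without the richest cells. Medians of the hormone and interferon lists changed sign without sub-clusters 1 and 4 (0.73 and -0.23). That of the lineage factors was -0.00027 there, against 0.23. Pooling within sub-clusters and leaving out the richest cell were also chosen after seeing the data. With 143 to 160 cells a library, a hormone held by few cells gives a ratio of those cells.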

Other observations

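Interferon-response genes and cell cycle genes were not described above. Of 8 interferon genes with enough UMIs, 6 were higher and 2 lower in neuroendocrine-like cells of the library labelled KO, 0 past 2-fold, with a median log2 ratio of 0.19. The median was 0.037 pooled within sub-clusters and -0.23 without sub-clusters 1 and 4, where its sign turned. Ifi27l2a had 679 CPM in the library labelled KO and 402 CPM in the library labelled WT, and in all other cells 1611 and 1094 CPM. Of 6 Notch pathway genes, 2 were higher and 4 lower, 0 past 2-fold, with Dll4, a Notch ligand, at 30.5 and 34.4 CPM, against 10.5 and 12.6 CPM in other cells. The summed level of 10 cell cycle genes was 131 CPM in neuroendocrine-like cells of the library labelled KO and 156 CPM in those of the library labelled WT, against 237 and 190 CPM in other cells. Of the 4 with enough UMIs, 1 was past 2-fold higher and 2 past 2-fold lower.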
